A study of Mus musculus with 36 samples.

Results

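Livers of mice that lack the C-terminus of p53 (d24) were set against livers of mice with wild-type p53 (wt). Members were the single-end liver libraries chosen by their titles, 3 d24 and 3 wt, which are 6 of the 36 libraries of the series. The series covers liver, spleen and thymus in 12 groups of 3 libraries, and its title concerns what the p53 C-terminus does for gene regulation in liver and for resistance to radiation. Total RNA was taken from tissue pieces kept in RNAlater and made into stranded total RNA libraries. All 6 livers are titled xray, but the sample characteristics give control for the 3 d24 livers and X-rays of 2 Gy with 3 h for the 3 wt livers, and they give WT for all 6. Groups follow the titles, and if the characteristics are right, genotype and X-ray treatment cannot be told apart in this comparison. The labels do not spell out the d24 allele beyond the lost C-terminus, and nothing in those labels tells the strain, age or sex of these mice or how many animals were used. P-values therefore measure the spread between these libraries.

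p53 is a transcription factor that stops the cell cycle, repairs DNA or kills the cell after damage, and its C-terminus is a flexible, heavily modified tail that touches DNA and helps to set how the protein binds and how long it lasts. Hepatocytes, the main cells of the liver, make plasma proteins, glucose, bile acids and urea, and they sit along a gradient from the portal vein (periportal) to the central vein (pericentral). They also make hormones. Hepcidin, the product of Hamp, is secreted by hepatocytes and lowers iron in blood by closing ferroportin, the iron exporter, and its gene is switched on by BMP signals that come mainly from liver endothelium. In young mammals the liver still hosts blood formation, which then moves to bone marrow and, in mice, spleen.

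Among the called genes were 2 pairs of neighbours that both rose in d24 livers, the hepcidin genes Hamp and Hamp2 and the metallothionein genes Mt1 and Mt2, so their upstream sequence is shown here. It was taken from RefSeq (GRCm38.p6), 150 bases that end just before the annotated start, written 5′ to 3′ on the gene's strand. All 4 genes had an entry. For Hamp (chr7:30944030-30944179, minus strand) and Hamp2 (chr7:30924182-30924331, minus strand), capitals mark the letters GGCGCC, the core of a BMP response element, and TTCNNNGAA, the core of a STAT element.
Hamp: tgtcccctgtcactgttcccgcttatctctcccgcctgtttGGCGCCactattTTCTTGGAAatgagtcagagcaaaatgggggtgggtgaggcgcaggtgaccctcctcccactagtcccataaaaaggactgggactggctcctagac
Hamp2: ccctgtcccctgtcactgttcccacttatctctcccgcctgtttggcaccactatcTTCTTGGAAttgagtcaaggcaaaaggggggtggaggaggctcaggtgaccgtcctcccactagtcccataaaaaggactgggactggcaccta
Aligned without gaps, the sequences matched at 135 of 147 bases (91.8%). Counted back from the start of Hamp, 1 of the 12 differences, G106A (Hamp's base first, Hamp2's base last), falls inside GGCGCC, which spans bases 109 to 104 before the start of Hamp. TTCTTGGAA stands in both. Searched on both strands, GGCGCC was found in 7.01% and TTCNNNGAA in 4.09% of 32851 upstream windows of the same length.

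For Mt1 (chr8:94178939-94179088, plus strand) and Mt2 (chr8:94172468-94172617, plus strand), capitals mark TGCACNC or TGCGCNC on either strand, the core of a metal response element.
Mt1: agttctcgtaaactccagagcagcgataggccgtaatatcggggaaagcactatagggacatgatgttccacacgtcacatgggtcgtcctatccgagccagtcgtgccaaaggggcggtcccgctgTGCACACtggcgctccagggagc
Mt2: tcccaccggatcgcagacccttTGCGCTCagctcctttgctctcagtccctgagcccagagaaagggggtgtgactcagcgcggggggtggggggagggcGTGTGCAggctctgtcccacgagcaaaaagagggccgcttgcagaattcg
For Mt1 the RefSeq start used here lies inside the gene span given below, which begins earlier. The whole Mt1 window therefore lies within that span and is upstream of the start used here only. Mt1 held 1 match and Mt2 held 2 that do not overlap, and 14.7% of all windows held at least 1. None of these matches was tested for binding in these livers.

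Values are the deposited normalised signal, CPM on an effective library size, and the 6 livers held 23229398 to 31646126 reads in the table. In these livers 1 read added 0.0603 to 0.0828 to a gene's signal. The 8 hepatocyte markers, among them Alb and Ttr, summed to 357016 to 405878 in d24 livers and 281073 to 418789 in wt livers, and 6 markers of lymphoid tissue to 16.9 to 22.7 in d24 livers and 56.4 to 81.6 in wt livers. Correlations between libraries of a group ran from 0.905 to 0.928 in d24 and from 0.916 to 0.954 in wt livers. Between groups they ran from 0.876 to 0.940. The highest, 0.940, joined d24 replicate 3 to wt replicate 2, above the 0.905 and 0.928 of d24 replicate 3 with d24 replicates 1 and 2. On the first principal component, 38.3% of the variance, d24 replicates 1 and 2 stood at 59.5 and 58.4, d24 replicate 3 at 8.06, and the wt livers at -47.8, -38.9 and -39.3. Xist, the RNA of the inactive X chromosome, was at 0, 737 and 704 in d24 livers, against 1.05, 581 and 0.302 in wt livers, so d24 replicates 2 and 3 and wt replicate 2 carried it at a high level. The Y-linked genes Uty and Kdm5d were read in the other 3 libraries alone (Uty 13.3, 0 and 0 in d24 livers, against 19.4, 0 and 20.9 in wt livers, and Kdm5d 19.2, 0 and 0 in d24 livers, against 25.9, 0 and 16.5 in wt livers).

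The table held 17697 genes, of which 13695 reached a signal of 1 in 3 or more of the 6 livers and were tested. Of these, 38 (0.277%) were higher and 34 (0.248%) were lower in d24 livers at an adjusted p under 0.05, together 72 genes or 0.526% (limma on log2(signal + 0.5), Benjamini-Hochberg adjustment). All differences below are log2 of d24 over wt on that scale, with their SE, and a gene is called where it passed this test. The scale understates the change of genes with little signal. The median over all genes tested was -0.08. Of all genes tested 43.6% had a positive and 56.4% a negative difference. An unadjusted p under 0.05 was reached by 1829 of the 13695, while edgeR called 10 and DESeq2 called 531. Counts of these kinds given for single lists below are to be read against these totals. For 2611 genes (19.1%) all 3 d24 values lay outside the range of the 3 wt values, above it for 7.56% and below it for 11.5%. A gene that passed the filter on signal through the livers of 1 genotype alone had to differ without overlap, which was so for 92 genes through wt and 31 through d24 livers. The number of calls rested on single libraries. It was 13 without d24 replicate 1, 41 without d24 replicate 2 and 311 without d24 replicate 3, and it was 7, 4 and 47 without wt replicate 1, 2 and 3. Hamp and Vldlr, the VLDL receptor gene, were called in all 6 of these fits. Vldlr is named because of this result, after its values were seen.

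Vldlr, on chromosome 19 from 27216480 to 27254231 (GRCm38, as all coordinates here), stood at 108, 162 and 142 in d24 livers, against 12.9, 9.69 and 10.01 in wt livers. The groups were far apart and each was tight. The difference was 3.59 ± 0.28 (adjusted p = 0.000697), and it ran from 3.46 to 3.75 with 1 library left out. Elfn1, known for a synaptic adhesion protein and located on chromosome 5 from 139907591 to 139974725, stood at 58.9, 63.4 and 45.8 in d24 livers, against 0, 0.248 and 0.422 in wt livers. It was close to absent in wt livers and even among d24 livers. Its difference was 6.32 ± 0.43 (adjusted p = 0.000407). Elfn1 passed the filter on signal through d24 livers alone.

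On the log2(signal + 0.5) scale Hamp had the largest difference of all genes tested. Fitted to recovered reads with edgeR, its log2 difference of 8.21 was below the 11.09 of Fgf23. Hamp, on chromosome 7 from 30942368 to 30944029, stood at 1199, 422 and 506 in d24 livers, against 5.38, 0.166 and 1.51 in wt livers. Every d24 liver was far above every wt liver, and d24 replicate 1 was the highest. The difference was 8.32 ± 0.68 (adjusted p = 0.000864), and it ran from 7.53 to 9.10 with 1 library left out. Hamp2, its neighbour on chromosome 7 from 30922372 to 30924181, stood at 44.1, 6.65 and 40.3 in d24 livers, against 0.131, 0.331 and 0.965 in wt livers. Here d24 replicate 2 was well below the other d24 livers but still above all wt livers. The difference was 4.68 ± 0.72 (adjusted p = 0.0271), and of the 3 fits with 1 library left out that could test it, those without wt replicate 1 or 2 lost the call (highest adjusted p 0.119 without wt liver replicate 2). Both genes are near-identical copies, and reads that match both cannot be assigned between them with what is known of the counting. In paired-end wt livers, from a table normalised separately, Hamp itself varied widely without regard to treatment, at 0.371, 102 and 32.6 after X-rays and 0.814, 101 and 0.333 untreated. Hamp2 there was at 6.76, 253 and 56.7 after X-rays and 7.88, 203 and 3.30 untreated. Its spread was as wide, and high and low libraries were the same as for Hamp.

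Of the upstream regulators of hepcidin, only the ligand was called by the main test. Bmp6, the BMP ligand that reports liver iron and is made by endothelial cells, on chromosome 13 from 38345716 to 38500314, stood at 12.2, 9.37 and 10.5 in d24 livers, against 0.985, 1.74 and 0.302 in wt livers. The d24 livers lay within a narrow band, well above each wt liver. Bmp6 rose by 3.00 ± 0.53 (adjusted p = 0.0424), a call that was lost with Xist as a covariate (adjusted p = 0.0639) and in 5 of 6 fits with 1 library left out (highest adjusted p 0.154 without wt liver replicate 1) while the difference ran from 2.61 to 3.35. Its span overlaps Txndc5. Id1 and Smad7 are 2 textbook targets of BMP signals in hepatocytes. Id1 stood at 66.8, 30.7 and 49.9 in d24 livers, against 19.2, 17.7 and 17.1 in wt livers, without overlap, at a difference of 1.35 ± 0.33 (adjusted p = 0.107). Smad7, the feedback inhibitor, stood at 24.2, 20.9 and 27.9 in d24 livers, against 18.6, 17.9 and 16.2 in wt livers, also without overlap, at 0.45 ± 0.29 (adjusted p = 0.533). Neither passed. Tfr2, the hepatocyte sensor of iron-loaded transferrin, was at 0.60 ± 0.28 (adjusted p = 0.39), and its groups overlapped. Erfe, the erythroblast hormone that suppresses hepcidin, was below the filter at 0.685, 1.12 and 0 in d24 livers, against 0, 0.166 and 1.21 in wt livers. Of the 25 tested genes of the hepcidin list, 3 were called, all higher, 20 had a positive difference, against 43.6% of all genes, and the median was 0.20 against -0.08 over all genes. Hamp2 passed the filter through d24 livers alone, and of the other 24 genes 19 were positive and 2 were called. The count of calls was 1 without d24 replicate 1 or 2 or wt replicate 1 or 2, 2 without wt replicate 3 and 3 without d24 replicate 3. It was 1 with edgeR and 6 with DESeq2, all higher.

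**Figure D1:**
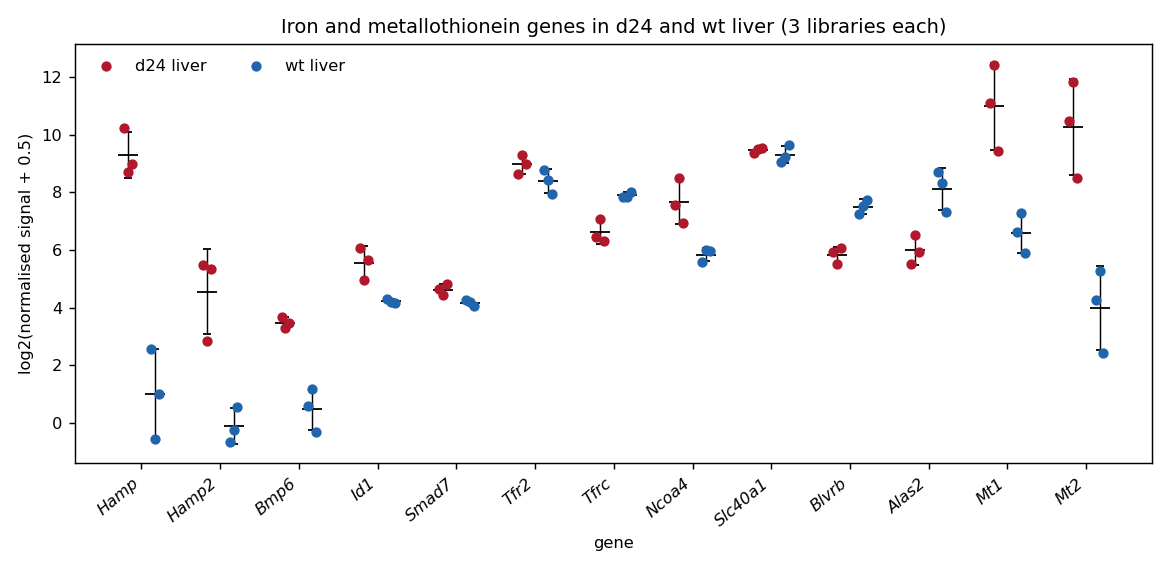
Log2(normalised signal + 0.5) of iron and metallothionein genes (y axis) in 3 d24 livers (left of each pair) and 3 wt livers (right); points are libraries, bars the mean ± SD. Hamp, Hamp2, Bmp6, Mt1 and Mt2 lie higher in every d24 liver, Blvrb and Alas2 lower, while Slc40a1 overlaps. For Hamp2 the filter on signal fixed this separation.

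No gene that carries, stores or exports iron passed the test (0 of 21 called, 3 at an unadjusted p under 0.05, 0 called by edgeR and 4 by DESeq2), and the median was 0.17. Tfrc and Ncoa4 had the smallest p. Tfrc, the transferrin receptor that brings iron into cells and is abundant in erythroblasts, stood at 86.98, 134 and 78.5 in d24 livers, against 231, 229 and 258 in wt livers. All d24 livers lay below all wt livers. The difference was -1.30 ± 0.25 (adjusted p = 0.0575), just outside the threshold. Ncoa4, which delivers ferritin for breakdown, stood at 191, 359.5 and 123 in d24 livers, against 47.3, 62.8 and 61.3 in wt livers, again with no overlap, at 1.84 ± 0.36 (adjusted p = 0.0575). Slc40a1, which encodes ferroportin, stood at 660.2, 727 and 750.2 in d24 livers, against 535, 597 and 795 in wt livers. The groups overlapped, and the difference of 0.17 ± 0.23 (adjusted p = 0.799) had an interval of -0.35 to 0.69. It turned to -0.03 with quantile scaling.

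Of 18 genes that scavenge, make or break down heme, 1 fell. Blvrb, a biliverdin reductase, stood at 60.00, 45.7 and 65.95 in d24 livers, against 151, 184 and 215 in wt livers, with no overlap. It fell by a log2 of 1.68, SE 0.25 (limma, adjusted p = 0.0242), and the call was lost in 5 of 6 fits with 1 library left out (highest adjusted p 0.173 without wt liver replicate 2). The list's median was -0.06.

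Metallothioneins, small proteins that bind zinc and copper and are induced by metals, glucocorticoids and inflammation, rose together. Mt2, on chromosome 8 from 94172618 to 94173567, stood at 1447, 3632 and 362 in d24 livers, against 18.8, 37.8 and 4.82 in wt livers. Mt1, on chromosome 8 from 94178883 to 94180327, stood at 2185, 5589 and 697 in d24 livers, against 97.2, 156 and 59.5 in wt livers. The order of the livers was the same for both genes, with d24 replicate 2 the highest and wt replicate 3 the lowest. The differences were 6.29 ± 0.82 (adjusted p = 0.0155) for Mt2 and 4.39 ± 0.63 (adjusted p = 0.0188) for Mt1. Leaving out d24 replicate 1 or wt replicate 1 ended the Mt2 call, and leaving out d24 replicate 1, wt replicate 1 or wt replicate 2 ended the Mt1 call (highest adjusted p 0.0768 without d24 liver replicate 1 and 0.0973 without wt liver replicate 1). In paired-end wt livers Mt1 was at 403, 189.7 and 385 after X-rays and 588, 333 and 187 untreated.

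Both metallothioneins stand on the lists of glucocorticoid targets and of acute phase genes, and they were the only called members of either. Of 18 glucocorticoid targets 16 had a positive difference, against 43.6% of all genes tested, with a median of 1.00. Of 24 acute phase genes 21 were positive, with a median of 0.77. Without d24 replicate 3, 8 glucocorticoid targets were higher and 1 was lower by the test. Without d24 replicate 1 or wt replicate 1, no member of either list was called.

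The liver hormone list had 3 called members among 28, with Hamp and Lect2 among them. Lect2, a secreted chemotactic protein, stood at 103, 51.8 and 171 in d24 livers, against 480.4, 654 and 495 in wt livers, and no d24 liver came near any wt liver. It fell by a log2 of 2.46, SE 0.38 (limma, adjusted p = 0.0275). The call was lost in 4 of 6 fits with 1 library left out (highest adjusted p 0.165 without wt liver replicate 2). The list's median was 0.28.

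Fgf23, on chromosome 6 from 127072902 to 127082296, is a hormone of bone cells that makes the kidney excrete phosphate. It stood at 42.99, 311 and 5.76 in d24 livers, against 0, 0.166 and 0 in wt livers. It was all but absent in wt livers and spread over a wide range in d24 livers, highest in replicate 2. The difference was 6.32 ± 1.10 (adjusted p = 0.0417), and Fgf23 passed the filter through d24 livers alone. With Xist as a covariate its adjusted p was 0.0558. By reads, 4656 in d24 against 2 in wt livers gave a ratio of 2389 at matched depth (exact 95% interval 661 to 19730, counting error only). The call was lost in 3 of 3 fits that could test the gene with a wt library left out (highest adjusted p 0.169 without wt liver replicate 1). Cyp17a1, the enzyme that makes androgen precursors and a gene expressed more in female mouse livers, stood at 122, 286 and 12.6 in d24 livers, against 0, 0.248 and 2.53 in wt livers. The d24 livers were above every wt liver, and replicate 3 was far below the other d24 livers. It rose by 6.21 ± 1.02 (adjusted p = 0.0312), a call lost in 4 of 6 fits with 1 library left out (highest adjusted p 0.168 without wt liver replicate 1). It was the only called gene among 20 female-biased genes, whose median was 0.13. Male-biased genes had a median of 0.25 (0 of 11 called, 2 at an unadjusted p under 0.05, 0 called by edgeR and 1 by DESeq2), with the smallest p for Cyp2u1 at 2.25 ± 0.51 (adjusted p = 0.092) and Hao2 at -1.49 ± 0.58 (adjusted p = 0.313). The lowest difference was -1.4911 in both the male-biased and the female-biased list. Hao2 therefore appears to stand on both lists, and its value cannot be read as that of a male-biased gene.

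The stress and fasting hormones Gdf15 and Fgf21 were not called. Gdf15, a stress hormone and known p53 target, stood at 6.54, 21.3 and 2.39 in d24 livers, against 0.131, 3.31 and 1.21 in wt livers, with a difference of 2.25 ± 0.84 (adjusted p = 0.294) and overlapping groups. Fgf21, a fasting hormone, stood at 4.67, 7.13 and 0.492 in d24 livers, against 3.35, 19.95 and 9.41 in wt livers, also overlapping, at -1.44 ± 0.82 (adjusted p = 0.487). Igfbp1, an insulin-repressed binding protein of IGFs, stood at 7508, 9616 and 3251 in d24 livers, against 1795, 2047 and 1614 in wt livers. All d24 livers were above all wt livers, at 1.77 ± 0.39 (adjusted p = 0.0895). Igfbp2 overlapped, at 0.40 ± 0.32 (adjusted p = 0.621).

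The growth hormone axis showed a spread within wt livers and no called difference between groups. Igf1, the growth factor made on growth hormone's command, stood at 697, 769 and 1189.7 in d24 livers, against 888, 964 and 366 in wt livers. Igfals, its carrier in blood, stood at 54.5, 23.3 and 115 in d24 livers, against 135, 142 and 9.23 in wt livers. Socs2, a feedback inhibitor of the receptor, stood at 84.4, 55.8 and 100.2 in d24 livers, against 129, 194 and 15.3 in wt livers. Cish, another such inhibitor, stood at 6.36, 13.9 and 13.9 in d24 livers, against 37.1, 26.2 and 6.69 in wt livers. In each of the 4 genes wt replicate 3 was the lowest wt liver. Bcl6, a repressor that growth hormone shuts off, had its highest wt value there (4.11, 21.6 and 8.78 in d24 livers, against 1.12, 3.81 and 26.1 in wt livers). The differences were 0.34 ± 0.38 for Igf1, -0.11 ± 0.93 for Igfals, 0.09 ± 0.75 for Socs2, -0.78 ± 0.59 for Cish and 0.79 ± 0.92 for Bcl6, with adjusted p from 0.602 to 0.973. Without wt replicate 3 those of Igf1 and Socs2 turned negative, at -0.10 and -1.02. Ghr, the receptor gene, was at -0.37 ± 0.21 (adjusted p = 0.499), and its groups did not overlap. Igfbp3, the main IGF carrier, was at -1.07 ± 0.38 (adjusted p = 0.266). The list's median was 0.20 (0 of 18 called, 4 at an unadjusted p under 0.05, 0 called by edgeR and 1 by DESeq2). Hormone receptors had a median of 0.21 (0 of 23 called, 6 at an unadjusted p under 0.05, 0 called by edgeR and 2 by DESeq2), and the smallest p belonged to Egfr at 1.55 ± 0.48 (adjusted p = 0.204) and Avpr1a, a vasopressin receptor, at -0.89 ± 0.31 (adjusted p = 0.253). Thyroid axis genes had a median of 0.13 (0 of 13 called, 2 at an unadjusted p under 0.05, 0 called by edgeR and 0 by DESeq2). Slc16a10, a thyroid hormone carrier, was at 1.01 ± 0.31 (adjusted p = 0.195) and Dio1, the hepatic deiodinase, at -1.24 ± 0.41 (adjusted p = 0.239).

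**Figure D2:**
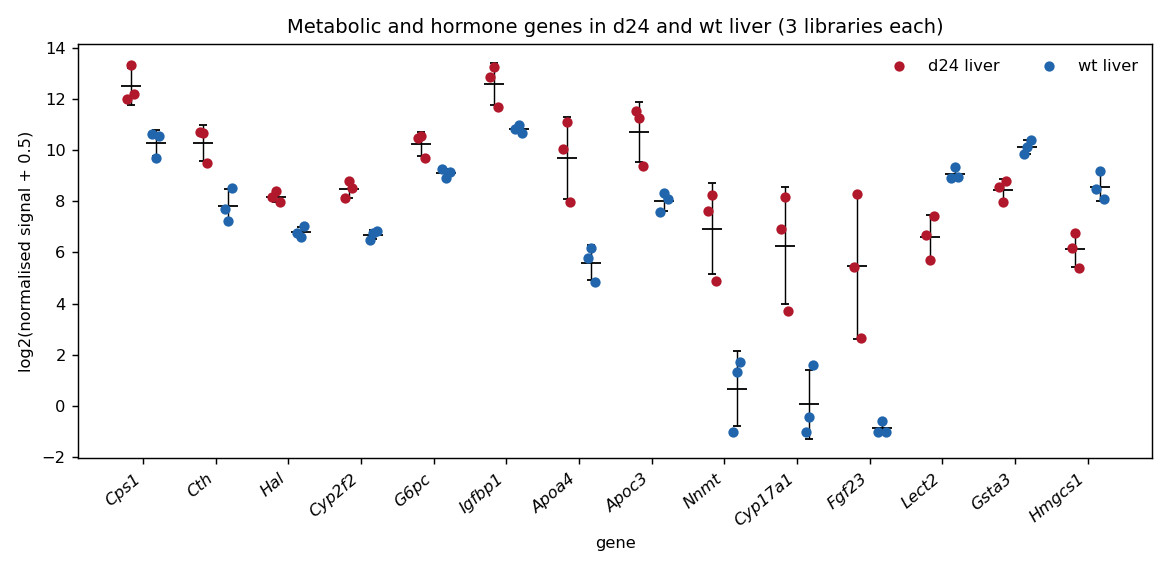
Log2(normalised signal + 0.5) of metabolic and hormone genes (y axis) in 3 d24 livers (left of each pair) and 3 wt livers (right); points are libraries, bars the mean ± SD. Cps1 to Fgf23 lie higher in all d24 livers, and Lect2, Gsta3 and Hmgcs1 lower. For Fgf23 the filter on signal fixed this separation.

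Genes of the urea cycle and amino acid breakdown were mostly higher in d24 livers. Of 30 genes, 27 had a positive difference, 18 did so without overlap, and 3 were called, against 43.6%, 7.56% and 0.277% of all genes tested. Cps1, the first and rate-limiting enzyme of the urea cycle, stood at 4049, 10252 and 4632 in d24 livers, against 1579, 827 and 1485 in wt livers. Cth, which makes cysteine, stood at 1654, 1618 and 715 in d24 livers, against 206, 150.4 and 366 in wt livers. Hal, which breaks down histidine, stood at 284, 336 and 253 in d24 livers, against 109, 97.02 and 129 in wt livers. In none of the 3 did a d24 value reach down to a wt value, and for Cth d24 replicate 3 lay closest to the wt livers. They rose by 2.21 ± 0.40, 2.46 ± 0.40 and 1.38 ± 0.23 (limma, adjusted p = 0.0458, 0.0302 and 0.0324). The list's median was 0.86. With Xist as a covariate the Cps1 call was lost (adjusted p = 0.0701). The count rested on single libraries, since 9 members were higher without d24 replicate 3, 1 without wt replicate 3 and 0 without any of the other 4.

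Genes of gluconeogenesis and fasting leaned the same way, with 14 of 16 positive, against 43.6% of all genes, and a median of 1.44 (0 of 16 called, 14 at an unadjusted p under 0.05, 0 called by edgeR and 7 by DESeq2). Without d24 replicate 3, 6 were called higher, and without wt replicate 3, 1. Pck1, the gatekeeper of glucose synthesis, stood at 4303, 4499 and 2864 in d24 livers, against 2377, 1392 and 2401 in wt livers. G6pc, which releases glucose, stood at 1424, 1492 and 829 in d24 livers, against 607, 478 and 564 in wt livers. In both genes all d24 livers were above all wt livers. The differences were 0.93 ± 0.32 (adjusted p = 0.244) and 1.14 ± 0.28 (adjusted p = 0.107). Got1, an aspartate aminotransferase, was at 2.19 ± 0.42 (adjusted p = 0.0525), and Irs2, an insulin signalling adaptor, at 1.74 ± 0.37 (adjusted p = 0.0856). Of 20 genes of glycolysis and fat synthesis 10 were positive and 10 negative (0 of 20 called, 7 at an unadjusted p under 0.05, 0 called by edgeR and 3 by DESeq2). Pfkl was at 1.53 ± 0.29 (adjusted p = 0.0525) and Elovl5, which lengthens fatty acids, at -1.23 ± 0.23 (adjusted p = 0.0524). With Xist as a covariate Got1 and Pfkl passed (adjusted p = 0.0309 and 0.0458), and without d24 replicate 3 both genes, Elovl5 and G6pc passed.

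The zonation lists split. Of 14 periportal genes 13 were positive, against 43.6% of all genes, and 3 were called, all higher, with a median of 1.29. They were Cps1, Hal and Cyp2f2, the last of which stood at 278, 437 and 371 in d24 livers, against 90.3, 107 and 113 in wt livers, clear of overlap, and rose by 1.78 ± 0.24 (adjusted p = 0.017). Of 15 pericentral genes 12 were negative, against 56.4% of all genes, with a median of -0.50, and Lect2 alone was called, lower. Cyp2f2 lost its call without wt replicate 1 or 2 (highest adjusted p 0.109 without wt liver replicate 2), and the periportal count was 7 without d24 replicate 3, 1 without d24 replicate 1, d24 replicate 2 or wt replicate 3 and 0 without wt replicate 1 or 2. Periportal and urea lists share genes.

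Genes of cholesterol synthesis leaned lower. Of 24 genes 23 had a negative difference, 8 of them without overlap, against 56.4% and 11.5% of all genes tested, and the median was -0.98. Hmgcs1, which makes the substrate of the pathway's rate-limiting step, was the only call. It stood at 72.1, 109 and 42.00 in d24 livers, against 353, 579.9 and 271 in wt livers, with wt replicate 2 the highest and no overlap, and fell by a log2 of 2.46, SE 0.38 (limma, adjusted p = 0.0271). The call was lost without d24 replicate 1 or wt replicate 1 or 2 (highest adjusted p 0.165 without wt liver replicate 2). By count, 6 genes of the list were lower without wt replicate 3, 3 without d24 replicate 3, 1 without d24 replicate 2 and 0 without the others.

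Apoc3 and Apoa4, which encode parts of lipoproteins, rose. Apoc3, which inhibits lipoprotein lipase, stood at 2930.1, 2423 and 662 in d24 livers, against 192, 319.8 and 269.6 in wt livers. Apoa4, an apolipoprotein induced by fasting, stood at 1056, 2193 and 249 in d24 livers, against 54.8, 71.1 and 28.04 in wt livers. In both, d24 replicate 3 lay lowest among d24 livers and still above all wt livers. They rose by 2.71 ± 0.49 (adjusted p = 0.0449) and 4.11 ± 0.66 (adjusted p = 0.0302), and each call was lost in 5 of 6 fits with 1 library left out (highest adjusted p 0.216 without wt liver replicate 1 and 0.123 without wt liver replicate 1). Apoc3 was the only call among 25 secreted liver proteins, of which 16 were positive, with a median of 0.11. Alb, for albumin, stood at 207168, 273822 and 258022 in d24 livers, against 199915, 240206 and 148091 in wt livers, and its difference of 0.35 ± 0.66 (adjusted p = 0.856) was within the spread.

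Nnmt, which methylates nicotinamide, was near absent in wt livers, at 197, 305 and 29.4 in d24 livers, against 0, 1.99 and 2.77 in wt livers, with d24 replicate 3 again the lowest d24 value. It rose by 6.25 ± 0.89 (adjusted p = 0.0178). Acmsd, which steers tryptophan breakdown away from NAD, stood at 52.8, 60.01 and 33.8 in d24 livers, against 3.35, 4.97 and 7.90 in wt livers, and rose by 3.10 ± 0.39 (adjusted p = 0.0132). It was named after its values were seen. Gsta3, a glutathione transferase, stood at 378, 250.2 and 442 in d24 livers, against 922, 1105 and 1334 in wt livers, and fell by a log2 of 1.67, SE 0.27 (limma, adjusted p = 0.0312). Nnmt lost its call in 4 of 6, Gsta3 in 5 of 6 and Acmsd in 3 of 6 fits with 1 library left out (highest adjusted p 0.083 without d24 liver replicate 1, 0.198 without wt liver replicate 2 and 0.0777 without wt liver replicate 2). Nnmt and Gsta3 were the only calls among 31 conjugation and antioxidant genes (median -0.32), and Cyp2f2 the only call among 31 cytochrome P450 genes (median 0.02). Hapln1, a link protein of hyaluronan matrix, stood at 76.5, 14.1 and 26.3 in d24 livers, against 0.788, 0.0828 and 1.33 in wt livers, and rose by 4.81 ± 0.66 (adjusted p = 0.0173), a call lost without d24 replicate 1 or wt replicate 1 or 2 (highest adjusted p 0.0861 without wt liver replicate 2).

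Bile acid genes had a median of 0.08 (0 of 23 called, 8 at an unadjusted p under 0.05, 0 called by edgeR and 3 by DESeq2). Fatty acid oxidation genes had a median of 0.08 (0 of 28 called, 8 at an unadjusted p under 0.05, 0 called by edgeR and 2 by DESeq2), and liver transcription factors of -0.15 (0 of 21 called, 3 at an unadjusted p under 0.05, 0 called by edgeR and 1 by DESeq2). Cyp7a1, the rate-limiting enzyme of bile acid synthesis, was at 40.5, 12.02 and 50.1 in d24 livers, against 68.02, 69.9 and 32.02 in wt livers, with overlap, and Cyp8b1 at 305, 457 and 204 in d24 livers, against 255, 213 and 168 in wt livers. The smallest p values were those of Abcc3 (1.09 ± 0.26, adjusted p = 0.106) and Hsd3b7 (-1.06 ± 0.26, adjusted p = 0.112) for bile acids, Cyp4a14 (1.62 ± 0.50, adjusted p = 0.204) and Acaa1b (-1.42 ± 0.45, adjusted p = 0.21) for fatty acids, and Onecut2 (1.58 ± 0.59, adjusted p = 0.295) and Zhx2 (-1.26 ± 0.53, adjusted p = 0.342) for transcription factors. In Cyp4a14 and Onecut2, d24 replicate 2 was far above every other library.

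Genes of several blood cell lineages were called lower in d24 livers. In bulk tissue, fewer cells of a type and less RNA per cell cannot be told apart. Of 16 mature neutrophil genes 15 passed the filter on signal, 1 of them through wt livers alone. Of the other 14, 12 were negative, 9 without overlap, and 5 fell, against 56.4%, 11.5% and 0.248% of all genes tested. The median of these 14 was -2.90. Ngp, a granule protein, stood at 0.187, 15.9 and 2.18 in d24 livers, against 135, 244 and 309 in wt livers. Camp, the cathelicidin precursor, stood at 0.0623, 3.12 and 0.351 in d24 livers, against 42.9, 51.7 and 50.5 in wt livers. Ltf, lactoferrin, stood at 0, 6.73 and 0.773 in d24 livers, against 27.5, 46.1 and 38.9 in wt livers. S100a8, a calcium-binding alarm protein, stood at 3.80, 14.9 and 4.43 in d24 livers, against 52.4, 165 and 173 in wt livers. Its partner S100a9 stood at 9.22, 30.04 and 10.9 in d24 livers, against 120.3, 229 and 291 in wt livers. In all 5 genes d24 replicate 2 had the highest d24 value, and every d24 liver lay under every wt liver. The differences were -6.13 ± 0.90 (adjusted p = 0.0214) for Ngp, -5.34 ± 0.63 (adjusted p = 0.0128) for Camp, -4.48 ± 0.80 (adjusted p = 0.0449) for Ltf, -4.06 ± 0.57 (adjusted p = 0.0173) for S100a8 and -3.74 ± 0.46 (adjusted p = 0.0132) for S100a9. Without d24 replicate 1 or 2 and without wt replicate 1 or 3, the number of genes that fell was 1, 6, 2 and 3. It was 5 without d24 replicate 3 and 0 without wt replicate 2, with Camp at an adjusted p of 0.0777 and Ngp at 0.105.

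Genes of granulocyte precursors and eosinophils fell too. Mpo, the peroxidase of primary granules, on chromosome 11 from 87793784 to 87804412, stood at 0, 0.561 and 0 in d24 livers, against 11.6, 11.4 and 22.7 in wt livers, and 2 d24 livers held no read. It fell by a log2 of 4.54, SE 0.57 (limma, adjusted p = 0.0132), and it could not be tested when a wt library was left out. Fcnb, a ficolin of precursors, stood at 0, 0 and 0.211 in d24 livers, against 5.58, 3.81 and 12.5 in wt livers. With 3 reads in d24 against 339 in wt livers, its ratio of wt to d24 was 110.1 at matched depth (exact 95% interval 37.4 to 537, counting error only). Its log2 difference was -3.64 ± 0.64 (adjusted p = 0.0428), not called with Xist as a covariate (adjusted p = 0.0647). These were the calls of the precursor list, of whose 11 genes 7 were tested. Both, and 2 others, passed the filter through wt livers alone, which fixed their direction and their lack of overlap. Of the remaining 3 tested genes 2 were negative, against 56.4% of all genes tested, and 0 were called. The list had 1 call without d24 replicate 1, 4 without d24 replicate 3 and 0 when any wt library was left out.

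Among 7 tested of 9 eosinophil genes, Ear1, Prg2, Prg3 and Ear6, which encode granule ribonucleases and major basic proteins, were called, all lower. Prg3 passed the filter through wt livers alone. Of the other 6 genes 5 were negative and 3 were called lower, against 56.4% and 0.248% of all genes tested. The median of these 6 was -3.65. Prg2 stood at 1.81, 15.9 and 5.41 in d24 livers, against 101, 209 and 196 in wt livers. Ear1 stood at 0, 2.16 and 1.12 in d24 livers, against 24.95, 42.96 and 41.97 in wt livers, and Ear genes form a family of near-identical copies whose reads may be shared. The differences were -4.73 ± 0.61 (adjusted p = 0.0141) for Prg2, -4.80 ± 0.61 (adjusted p = 0.0132) for Ear1, -3.70 ± 0.59 (adjusted p = 0.0302) for Prg3 and -3.39 ± 0.57 (adjusted p = 0.0327) for Ear6. Either 2 or 5 genes of the list fell without 1 of the d24 livers, 2 without wt replicate 3 and 0 without wt replicate 1 or 2. Kit and Gata2, genes of mast cells and progenitors, were at -0.23 ± 0.35 (adjusted p = 0.812) and 0.35 ± 0.49 (adjusted p = 0.798), and mast cell and basophil genes held no call (0 of 4 called, 0 at an unadjusted p under 0.05, 0 called by edgeR and 0 by DESeq2).

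**Figure D3:**
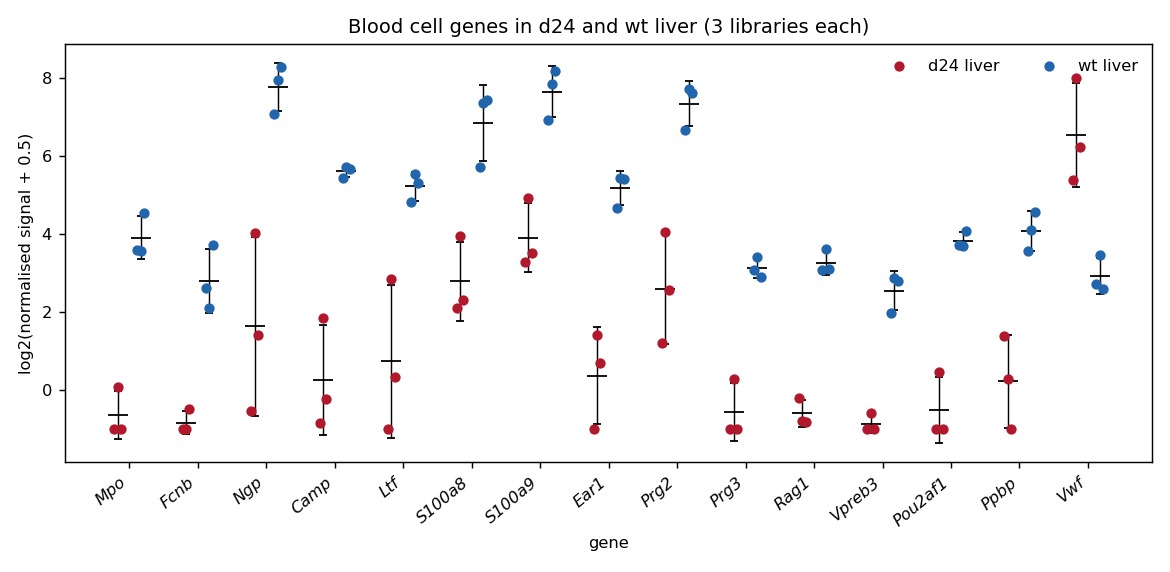
Log2(normalised signal + 0.5) of blood cell genes (y axis) in 3 d24 livers (left of each pair) and 3 wt livers (right); points are libraries, bars the mean ± SD, and -1 stands for no read. All genes shown were chosen from the called genes. All but Vwf are lower in every d24 liver, and Vwf is higher. For Mpo, Fcnb, Prg3, Rag1, Vpreb3 and Pou2af1 the filter on signal fixed this separation.

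Of 18 B cell genes 12 were tested and 5 were called, all lower in d24 livers. For 6 of the 12, Rag1, Vpreb3 and Dntt among them, the filter on signal was passed through wt livers alone and fixed both the direction and the lack of overlap. The other 6 were all negative, 5 of them without overlap, and 1 was called, against 56.4%, 11.5% and 0.248% of all genes tested. Rag1, the recombinase of developing lymphocytes, on chromosome 2 from 101638252 to 101649532, stood at 0.374, 0.0801 and 0.0702 in d24 livers, against 7.88, 11.8 and 8.02 in wt livers. Vpreb3, of the pre-B cell receptor complex, stood at 0, 0.160 and 0 in d24 livers, against 3.41, 6.87 and 6.39 in wt livers. Every wt liver was above every d24 liver, and all d24 values of these genes were under 1. Rag1 fell by a log2 of 3.85, SE 0.54 (limma, adjusted p = 0.0173), and Fcrla fell by a log2 of 2.68, SE 0.47 (limma, adjusted p = 0.0445). With Xist as a covariate the calls of Fcrla and Vpreb3 were lost (adjusted p = 0.0674 and 0.0569). Vpreb3 was at -3.41 ± 0.61 (adjusted p = 0.0449), with 2 reads in d24 against 241 in wt livers, a ratio of wt to d24 of 117 (exact 95% interval 32.15 to 975, counting error only). Dntt, which adds bases at the joins, was called too and is named after its values were seen. Pou2af1, a B cell coactivator outside the list, stood at 0, 0.881 and 0 in d24 livers, against 12.7, 12.3 and 16.4 in wt livers, at a difference of -4.34 ± 0.57 (adjusted p = 0.0157). Pou2af1 too passed the filter through wt livers alone, which fixed its direction and lack of overlap. It could not be tested when a wt library was left out. The B cell count was 8 without d24 replicate 3, 1 without d24 replicate 1 or 2 and 0 when any wt library was left out, where Rag1 and Vpreb3 fell below the filter.

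The 6 B cell markers summed to 3.77 to 4.92 in d24 livers and 23.8 to 65.5 in wt livers, and the 8 neutrophil markers to 13.3 to 76.7 in d24 livers and 398 to 899.8 in wt livers. Elane was at 0 in all 3 d24 livers and Vpreb1 likewise. The part of these cells in the other d24 differences was not tested. Kupffer cell markers, which mark the resident macrophages, summed to 776 to 993 in d24 livers and 1016 to 2696 in wt livers, and T or NK cell markers to 12.6 to 22.2 in d24 livers and 21.4 to 62.1 in wt livers. Kupffer cell genes had a median of -0.54 (0 of 17 called, 6 at an unadjusted p under 0.05, 0 called by edgeR and 2 by DESeq2), T and NK cell genes of -0.99 (0 of 17 called, 5 at an unadjusted p under 0.05, 0 called by edgeR and 0 by DESeq2), and monocyte and dendritic cell genes of -1.42 (0 of 16 called, 7 at an unadjusted p under 0.05, 0 called by edgeR and 4 by DESeq2). Of these tested genes 1 T or NK cell gene passed the filter through wt livers alone, as did the monocyte and dendritic cell genes Ly6c2 and Siglech. Lyz2 was at -1.55 ± 0.42 (adjusted p = 0.16) and Folr2 at -1.45 ± 0.38 (adjusted p = 0.137). Both had their highest value in wt replicate 3, at 567 and 90.5. Cd2 was at -2.04 ± 0.64 (adjusted p = 0.209), Il7r at -2.17 ± 0.69 (adjusted p = 0.216) and the monocyte gene Ly6c2 at -3.42 ± 0.66 (adjusted p = 0.054). Siglech, of plasmacytoid dendritic cells, had no read in d24 livers and 170 in wt livers, at least 55.2-fold lower in d24 on a floor of 3 reads over the group, and its adjusted p was 0.0902.

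Platelet genes moved in both directions. Ppbp, a platelet chemokine, stood at 2.12, 0.721 and 0 in d24 livers, against 11.2, 16.8 and 23.2 in wt livers, and fell by a log2 of 3.85, SE 0.64 (limma, adjusted p = 0.0312). Vwf, which encodes von Willebrand factor of both platelets and endothelium, stood at 41.2, 253 and 73.96 in d24 livers, against 6.11, 10.4 and 5.55 in wt livers, with d24 replicate 2 far above the rest. It rose by 3.61 ± 0.57 (adjusted p = 0.0292). These were the calls among 10 tested of 15 genes. Of the 10, 3 passed the filter through wt livers alone, and the other 7 had a median of -0.28. The Ppbp call was lost without d24 replicate 2 or any wt library and the Vwf call without any wt library (highest adjusted p 0.212 without wt liver replicate 2 and 0.138 without wt liver replicate 1). Megakaryocyte markers summed to 11.8 to 21.2 in d24 livers and 31.1 to 51.8 in wt livers. Endothelial markers summed to 718 to 1668 in d24 livers and 482 to 635 in wt livers, the reverse order. All 13 liver endothelium genes had a positive difference, against 43.6% of all genes tested. The list's median was 0.84 (0 of 13 called, 8 at an unadjusted p under 0.05, 0 called by edgeR and 2 by DESeq2), and 1 was called without d24 replicate 3. Lyve1 was at 1.61 ± 0.45 (adjusted p = 0.163) and Stab2 at 1.01 ± 0.35 (adjusted p = 0.248). The part of endothelial content in the Bmp6 and Vwf differences was not tested.

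Erythroid genes leaned lower. Of 24 tested, 20 were negative, against 56.4% of all genes, the median was -0.92, and Alas2 was called. Alas2, the first enzyme of heme synthesis in red cell precursors, on chromosome X from 150547417 to 150570622, stood at 44.9, 91.4 and 61.2 in d24 livers, against 424, 323 and 159 in wt livers. The d24 livers were all lower, and wt replicate 3 was the wt liver nearest to them. It fell by a log2 of 2.14, SE 0.38 (limma, adjusted p = 0.0449), and the call was lost in 4 of 6 fits with 1 library left out (highest adjusted p 0.253 without wt liver replicate 2). Without wt replicate 3, 3 erythroid genes fell. Hbb-bs, an adult beta globin gene with near-identical copies, stood at 0.436, 1.68 and 2.18 in d24 livers, against 8.47, 9.11 and 3.80 in wt livers, and was not called (-2.03 ± 0.59, adjusted p = 0.182). Erythroid markers summed to 135 to 444 in d24 livers and 315 to 2302 in wt livers, and these ranges overlapped. None of the embryonic globin genes passed the filter on signal.

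**Figure D4:**
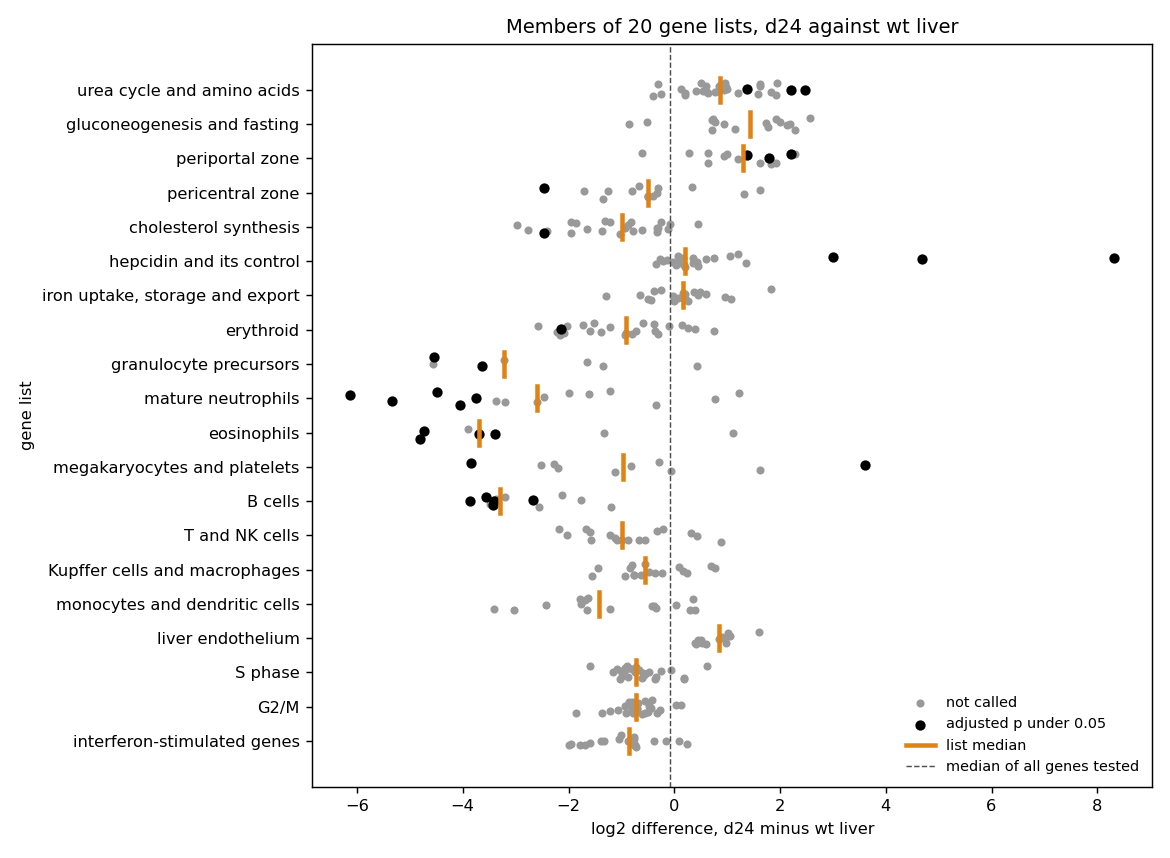
Log2 difference of d24 minus wt liver (x axis) for the tested members of 20 gene lists (y axis). Black points have an adjusted p under 0.05, grey points do not, orange bars are list medians and the dashed line the median of all genes tested (-0.08). Most neutrophil, eosinophil and B cell genes lie far to the left, some of them with a direction that the filter on signal fixed, and Hamp, Hamp2 and Bmp6 far to the right.

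Most proliferation genes had a negative difference and none was called. Of 27 S phase genes 24 and of 30 G2/M genes 28 were negative, against 56.4% of all genes tested, with medians of -0.72 (0 of 27 called, 3 at an unadjusted p under 0.05, 0 called by edgeR and 0 by DESeq2) and -0.72 (0 of 30 called, 4 at an unadjusted p under 0.05, 0 called by edgeR and 0 by DESeq2). Mki67, the general marker of cycling cells, stood at 26.2, 67.1 and 159 in d24 livers, against 114, 103 and 59.7 in wt livers. Its groups overlapped, since d24 replicate 3 was the highest of all 6 livers and replicate 1 the lowest. Its difference of -0.44 ± 0.54 (adjusted p = 0.773) turned to 0.21 without d24 replicate 1. Uhrf1 (-1.59 ± 0.66, adjusted p = 0.339) and Mcm4 (-0.93 ± 0.40, adjusted p = 0.359) led the S phase list by p, and Kif23 (-1.38 ± 0.41, adjusted p = 0.191) and Ndc80 (-1.87 ± 0.67, adjusted p = 0.276) the G2/M list. Without d24 replicate 3, 2 G2/M genes were lower by the test. Interferon-stimulated genes were negative in 18 of 20 cases, 11 of them without overlap, against 56.4% and 11.5% of all genes tested, with a median of -0.86 (0 of 20 called, 10 at an unadjusted p under 0.05, 0 called by edgeR and 3 by DESeq2). Irf7, a regulator of interferon genes, was at -1.99 ± 0.40 (adjusted p = 0.0629) and Igtp at -1.60 ± 0.39 (adjusted p = 0.107). Genes of the unfolded protein and integrated stress response had a median of 0.19 (0 of 20 called, 3 at an unadjusted p under 0.05, 0 called by edgeR and 1 by DESeq2), with Psat1 at 1.30 ± 0.53 (adjusted p = 0.332) and Asns, which makes asparagine, at 0.76 ± 0.34 (adjusted p = 0.372). Clock genes had a median of 0.17 (0 of 15 called, 6 at an unadjusted p under 0.05, 0 called by edgeR and 1 by DESeq2), with the clock repressor Cry1 at 1.20 ± 0.31 (adjusted p = 0.135) and Per3 at -1.32 ± 0.41 (adjusted p = 0.206).

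Of 3 lists of direct p53 targets, 1 held a called gene. Trp53 itself, on chromosome 11 from 69580348 to 69591873, stood at 42.2, 47.2 and 50.99 in d24 livers, against 54.6, 55.7 and 34.6 in wt livers, and its difference of -0.02 ± 0.28 is no check of the genotype, since a lost C-terminus need not change the RNA level. Btg2, an antiproliferative target, was the only called gene among 16 arrest and feedback genes. It stood at 449.9, 589 and 183 in d24 livers, against 78.9, 69.5 and 89.3 in wt livers, without overlap, and rose by 2.20 ± 0.38 (adjusted p = 0.0417). The call was lost in 5 of 6 fits with 1 library left out (highest adjusted p 0.243 without wt liver replicate 2). Cdkn1a, the cell cycle inhibitor p21, stood at 359.6, 364 and 108 in d24 livers, against 17.7, 34.4 and 147 in wt livers. Here the groups overlapped, with wt replicate 3 above d24 replicate 3, and the difference was 2.41 ± 0.70 (adjusted p = 0.177). Without wt replicate 3 it was 3.26 and passed (adjusted p = 0.0379), and it also passed in the fit of 18 libraries (adjusted p = 0.0397). Mdm2, whose product destroys p53, stood at 47.9, 55.1 and 45.3 in d24 livers, against 35.4, 31.04 and 30.4 in wt livers. Ccng1, for cyclin G1, stood at 75.02, 113 and 97.3 in d24 livers, against 62.6, 57.1 and 67.6 in wt livers. Neither overlapped between groups. Phlda3, an inhibitor of AKT signalling, stood at 12.4, 10.1 and 7.09 in d24 livers, against 3.09, 2.57 and 4.94 in wt livers. Eda2r, a death receptor gene, stood at 8.41, 10.3 and 7.02 in d24 livers, against 3.41, 0 and 0 in wt livers. These did not overlap either. The differences were 0.61 ± 0.25 (adjusted p = 0.339) for Mdm2, 0.59 ± 0.25 (adjusted p = 0.345) for Ccng1, 1.37 ± 0.44 (adjusted p = 0.216) for Phlda3 and 3.18 ± 0.79 (adjusted p = 0.116) for Eda2r. Bax was at 0.92 ± 0.36 (adjusted p = 0.311) and Bbc3, another death gene, at 0.07 ± 0.53 (adjusted p = 0.971).

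The arrest list had 13 of 16 positive differences, 6 of them without overlap, against 43.6% and 7.56% of all genes tested. Its median was 0.60, and 3 members were higher without d24 replicate 3. Death genes had 8 of 15 positive, 6 of them without overlap, against the same shares of all genes. Another 2 death genes were lower without overlap, against 11.5% of all genes tested. Death genes had a median of 0.07 (0 of 15 called, 8 at an unadjusted p under 0.05, 0 called by edgeR and 0 by DESeq2), and metabolism and repair targets of -0.14 (0 of 15 called, 3 at an unadjusted p under 0.05, 0 called by edgeR and 0 by DESeq2). Of the death genes 1 passed the filter through d24 livers alone. The difference between these lists was not tested. Siva1 was at -1.63 ± 0.46 (adjusted p = 0.169), Ddb2 at -1.45 ± 0.44 (adjusted p = 0.192) and Gls2 at 1.00 ± 0.34 (adjusted p = 0.241).

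Paired-end wt livers showed the size of an X-ray response in separate libraries. There, 32 of 13250 genes (0.242%) were called after 2 Gy and 3 h. Cdkn1a stood at 115, 126 and 109 after X-rays and 11.7, 15.9 and 16.05 untreated, a difference of 2.98 ± 0.15 (adjusted p = 0.000238). Eda2r stood at 13.8, 16.3 and 16.8 after X-rays and 1.21, 0.605 and 0.787 untreated (3.58 ± 0.20, adjusted p = 0.000286). Phlda3 was at 2.64 ± 0.17 (adjusted p = 0.000784), Ccng1 at 2.02 ± 0.14 (adjusted p = 0.00103), Btg2 at 1.04 ± 0.15 (adjusted p = 0.0423) and Mdm2 at 0.78 ± 0.12 (adjusted p = 0.0583). Of the single-end wt livers, all titled xray, replicates 1 and 2 had Cdkn1a at 17.7 and 34.4, nearer to the untreated than to the irradiated paired-end livers, and replicate 3 had 147. Among the d24 livers, titled xray but called control by the characteristics, replicates 1 and 2 stood above all irradiated paired-end livers. Replicate 3 of d24 stood just below them. Both tables were normalised separately, so levels across them are approximate. The livers of the tables also differed in other ways, since Afp, given below, was far higher in all single-end livers. Bcl6 and Cish, which also changed after X-rays (2.28 ± 0.19 and -3.14 ± 0.34, adjusted p = 0.00207 and 0.00932), had in wt replicate 3 the values 26.1 and 6.69, against 1.12 to 3.81 and 26.2 to 37.1 in wt replicates 1 and 2. Of the other X-ray genes, Phlda3, Btg2 and Ccng1 were also highest in that wt liver, at 4.94, 89.3 and 67.6, whereas Mdm2 was lowest there, at 30.4, and Eda2r was at 0. The part of X-ray treatment in the d24 differences was not tested. Hamp, Mt1, Mt2, Cps1 and Ngp were not called after X-rays, at 1.58 ± 2.08, -0.10 ± 0.42, -0.10 ± 0.44, 0.29 ± 0.13 and 0.41 ± 0.33. The X-ray calls rested on single libraries too, and their number was 9 without X-ray replicate 3 and 2836 without X-ray replicate 1.

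**Figure D5:**
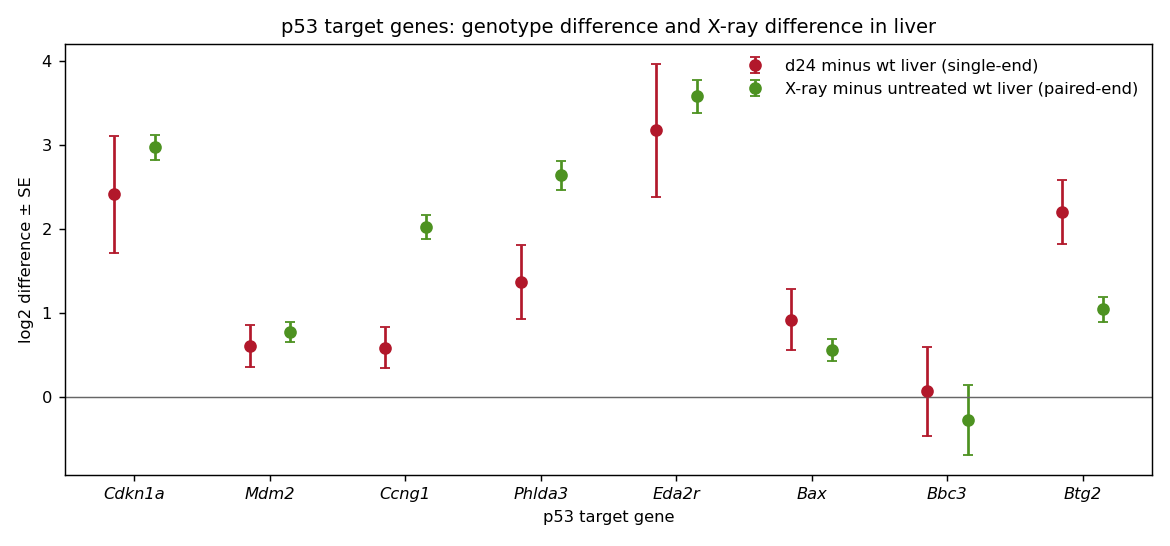
Log2 difference ± SE (y axis) of 8 p53 target genes (x axis), with d24 minus wt in single-end liver (left, 3 libraries each) beside X-ray minus untreated in paired-end wt liver (right, 3 libraries each). X-ray differences of Cdkn1a, Ccng1, Phlda3 and Eda2r exceed 2, and the d24 differences of Mdm2 (0.61) and Ccng1 (0.59) are smaller.

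Genes of fetal liver stood high in all 6 livers. Afp, the fetal serum protein, stood at 16366, 17266 and 16105 in d24 livers, against 8607, 6593 and 3850.1 in wt livers. H19, an imprinted growth-linked RNA, stood at 39649.8, 39690.0 and 40436 in d24 livers, against 27554, 34715 and 17137 in wt livers. In paired-end wt livers Afp was at 19.97, 7.27 and 9.46 after X-rays and 10.03, 11.4 and 9.81 untreated. Both genes were higher in each d24 liver than in each wt liver, yet neither was called, at 1.46 ± 0.37 (adjusted p = 0.122) for Afp and 0.65 ± 0.43 (adjusted p = 0.55) for H19. Igf2 stood at 8062, 14501 and 18649 in d24 livers, against 10742, 12613 and 603 in wt livers, with wt replicate 3 far below the rest, and its difference was 1.58 ± 0.96 (adjusted p = 0.511). Of 19 tested genes of the fetal and imprinted list 13 were positive, against 43.6% of all genes tested. The list's median was 0.74 (0 of 19 called, 10 at an unadjusted p under 0.05, 0 called by edgeR and 6 by DESeq2). Peg3 was at 1.31 ± 0.33 (adjusted p = 0.117) and Cdkn1c, a growth inhibitor, at -1.58 ± 0.40 (adjusted p = 0.117). With no age in the labels, a difference in age cannot be told apart from genotype.

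Markers of other tissue were low. Pnliprp1, a pancreatic lipase relative, stood at 2.87, 0.320 and 7.45 in d24 livers, against 69.2, 82.7 and 24.2 in wt livers, and fell by a log2 of 4.22, SE 0.76 (limma, adjusted p = 0.0449), a call lost in 4 of 6 fits with 1 library left out (highest adjusted p 0.253 without wt liver replicate 2) and with Xist as a covariate (adjusted p = 0.0556). The 3 other pancreas markers in the table summed to 8.29 to 23.7 in d24 livers and 7.29 to 10.5 in wt livers, and Ctrb1 was at 0 in every liver. Adipoq, Plin1 and Cfd, which define fat, were at 0 in all 6 livers. Fabp4, which endothelium also expresses, was at 1.83 ± 0.46 (adjusted p = 0.117), and Car3 at -3.38 ± 1.21 (adjusted p = 0.272). Fat genes overall had 0 of 3 called, 2 at an unadjusted p under 0.05, 0 called by edgeR and 2 by DESeq2. Stellate cell genes had a median of 0.32 (0 of 16 called, 1 at an unadjusted p under 0.05, 0 called by edgeR and 1 by DESeq2), led by Rgs5 at 2.46 ± 0.46 (adjusted p = 0.0513), and Reln, another stellate marker, was at 0.67 ± 0.35 (adjusted p = 0.448). Bile duct genes had a median of -0.46 (0 of 8 called, 1 at an unadjusted p under 0.05, 0 called by edgeR and 1 by DESeq2). Their markers summed to 84.4 to 97.6 in d24 livers and 141 to 172 in wt livers, and Spp1 (-0.90 ± 0.23, adjusted p = 0.119) and Krt7 (-0.94 ± 0.61, adjusted p = 0.543) led them.

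Whether a difference was particular to liver was tested as an interaction over the 18 single-end libraries. In spleen, as in liver, characteristics and titles conflict, but there they give X-rays to d24 and control to wt. The d24 difference in liver departed from that in spleen for 81 of 16092 genes (0.503%) and from that in thymus for 48 (0.298%). Of the 72 genes called in liver, 16 differed from spleen, 18 from thymus and 7 from both. These 72 were chosen by the liver difference, which is also a term of each interaction, so a higher share among them is partly built in. The genes with both interactions included Hamp, Elfn1, Hapln1, Cyp17a1, Acmsd and Btg2, all higher in liver.

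Hamp was at 0 in all 6 spleens, and in thymus it stood at 0.512, 0.614 and 2.55 in d24, against 2.17, 0 and 0 in wt, so its interactions of 8.32 ± 1.03 (adjusted p = 0.00057) and 7.53 ± 1.03 (adjusted p = 0.00489) repeat the liver difference. Elfn1 was low in the other tissues. It stood at 2.26, 0.0345 and 3.24 in d24 spleens, against 0.702, 0.440 and 0.0418 in wt spleens, and its interactions were 5.26 ± 0.85 (adjusted p = 0.00688) with spleen and 6.52 ± 0.85 (adjusted p = 0.00489) with thymus. Btg2 is the clearest case of a gene that all 3 tissues express. It stood at 172, 177 and 231 in d24 spleens, against 251, 239.6 and 232 in wt spleens, and at 229, 337 and 200.9 in d24 thymi, against 276, 289 and 369 in wt thymi. The d24 spleens lay just under the wt spleens, the thymus groups overlapped, and the interactions were 2.53 ± 0.44 (adjusted p = 0.0101) and 2.51 ± 0.44 (adjusted p = 0.033). Acmsd was also expressed in spleen, at 17.4, 26.04 and 29.9 in d24, against 26.6, 23.6 and 19.1 in wt, and its interaction with spleen was 3.04 ± 0.56 (adjusted p = 0.0139). Hmgcs1, lower in d24 liver, departed from spleen by -2.75 ± 0.51 (adjusted p = 0.015).

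Of 16 named granulocyte, eosinophil, platelet and B cell genes that fell in liver, none had a called interaction with spleen (adjusted p from 0.162 to 1), which does not show that the differences were alike. All 16 were lower in d24 spleens, and 13 of them passed there. The share of all genes lower in d24 spleens is not given here, so these counts cannot be weighed against it. Among the 16, Mpo, Fcnb, Prg3, Rag1, Vpreb3 and Dntt had passed the filter in liver through wt livers alone. Ngp, Ltf and Fcrla did not pass in spleen, at -3.86, -3.07 and -1.98. Camp, Ear1, Prg2, Mpo, S100a8 and Ppbp had log2 differences in spleen of -4.58, -4.07, -4.80, -8.08, -3.92 and -4.82 in the fit of 18 libraries (adjusted p from 2.96e-06 to 0.0336). With thymus, Camp, Ear1, Mpo, Ltf, S100a9, Rag1 and Vpreb3 did differ, by -7.13 ± 1.24 (adjusted p = 0.0325), -5.54 ± 1.09 (adjusted p = 0.0357), -4.89 ± 1.03 (adjusted p = 0.049), -6.49 ± 1.33 (adjusted p = 0.045), -6.06 ± 1.27 (adjusted p = 0.0476), -3.31 ± 0.61 (adjusted p = 0.033) and -3.42 ± 0.70 (adjusted p = 0.047). Cdkn1a and Ccng1 were higher in d24 spleen by 5.59 and 2.26, against 2.41 and 0.59 in liver. The interaction was called for Ccng1, at -1.67 ± 0.30 (adjusted p = 0.0128), and not for Cdkn1a, at -3.17 ± 0.83 (adjusted p = 0.112).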

How the data were processed

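RNA-seq of liver, spleen and thymus was analysed from 2 deposited gene tables, a single-end and a paired-end one, each normalised separately. The authors deposited normalised signal, which the values show to be CPM on an effective library size. Per the submitters' processing notes, edgeR and the mm10 build were used, and no versions are given. Aligner, counter and use of strand: not given in the sources used here. In every library used, 100% of values were whole multiples of the value of 1 read, within 0.01 of a step, so whole reads could be recovered. In the paired-end table, 18 columns matched no sample here and were not used. Symbols were matched to RefSeq (GRCm38.p6) for 97.1% of single-end and 96.7% of paired-end rows.

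The main test was limma 3.58.1 (R 4.3.3) with trend on log2(signal + 0.5), two-sided, for genes that reached a signal of 1 in 3 or more libraries, with Benjamini-Hochberg adjustment at 0.05 over all genes tested. Differences between tissues were interaction terms of 1 fit over 18 single-end libraries. Alternatives were the pseudocount, the filter, scaling, a replicate block, Xist as a covariate, each library left out, and edgeR 4.0.16 (quasi-likelihood) and DESeq2 1.42.0 on the recovered reads. Scripts were tested on simulated data. Named genes were a fixed panel of 40 genes, the 10 highest and 10 lowest called genes, up to 4 called genes per direction of each of 49 lists, and the 2 smallest p of lists with no call. Some genes that this rule names are not reported here. The members and lists were chosen with earlier results of these data known. Intervals on reads cover counting error only.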

Additional observations from a re-analysis of the deposited data

Results flagged for a closer look

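Results are listed here because the d24 difference in liver departed from that in spleen or thymus by the interaction term of the 18-library fit (limma, adjusted p under 0.05). Each value is the log2 difference of d24 over wt in liver minus that in the other tissue. Against spleen, the liver difference was higher for Hamp 8.32, Hamp2 4.68, Elfn1 5.26, Nnmt 6.38, Cyp17a1 6.43, Hapln1 4.95, Ncoa4 1.88, Vwf 4.48, Btg2 2.53 and Acmsd 3.04. It was lower for Ccng1 -1.67, Cish -3.51, Hmgcs1 -2.75 and Avpr1a -3.95. Against thymus, it was higher for Hamp 7.53, Elfn1 6.52, Cyp17a1 5.52, Hapln1 5.42, Btg2 2.51 and Acmsd 3.10, and lower for Ghr -2.49, Camp -7.13, Ear1 -5.54, Mpo -4.89, Ltf -6.49, Rag1 -3.31, Hsd3b7 -3.22, S100a9 -6.06, Vpreb3 -3.42 and Folr2 -3.69.

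Ccng1, Cish and Avpr1a departed from spleen, where d24 was higher than wt, by a log2 of 2.26, 2.73 and 3.06, and Hsd3b7, Folr2 and Ghr departed from thymus likewise, by 2.17, 2.23 and 2.12 there. Hamp and Hamp2 were at 0 in all spleens and Acmsd in all thymi, so these values repeat the liver difference. The characteristics give X-rays to d24 spleens and to wt livers and wt thymi, so treatment and genotype cannot be told apart in any of these differences. No group was large enough for a search for single outlying samples.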

How the results depend on the processing

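The number of genes called in liver (72, 38 higher and 34 lower) was 44 with a pseudocount of 0.1, 43 with no filter (18 higher and 25 lower), 46 with a mean signal of at least 5, 33 with a replicate block, 281 in 1 fit of 18 libraries (121 higher and 160 lower), 10 with edgeR (9 higher and 1 lower) and 531 with DESeq2 (341 higher and 190 lower). With 1 library left out it ran from 4 to 311. Without the trend the split was 12 higher and 37 lower of 49. The titles do not say whether replicate numbers pair the livers. Deviations of same-numbered libraries correlated at -0.16, -0.03 and -0.27, and those of different numbers at -0.11 to 0.23. With 3 libraries a group these values cannot decide it, so the block is given as an alternative only. The count of genes that differed from spleen (81) was 28 with a pseudocount of 0.1 and 139 with 2, and 38 to 174 with 1 liver library left out. From thymus (48) it was 30 and 78 at these pseudocounts, 21 with a mean of at least 5, 27 with median-ratio scaling, 20 higher and 20 lower with quantile scaling (against 12 and 36), and 2 to 123 with 1 liver library left out. The X-ray count (32) ran from 9 to 2836 with 1 library left out. With the replicate block these 3 counts were 62, 44 and 39.

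Of 43 named called genes, 4 kept their call with edgeR and 41 with DESeq2, and none reversed under any alternative. With Xist as a covariate 8 of the 43 calls were lost. Those of Bmp6, Fgf23, Pnliprp1, Cps1, Fcnb, Fcrla and Vpreb3 were among them (limma, adjusted p from 0.0556 to 0.0701 for the genes named). Differences that turned sign belonged to uncalled genes. Trp53 (-0.02) was 0.045 with median-ratio scaling and 0.017 with DESeq2, and ran from -0.24 to 0.10 with 1 library left out. Slc40a1 was -0.035 with quantile scaling. Socs2 (0.09) was -0.19 with Xist as a covariate, -0.49 with edgeR and -0.42 with DESeq2. With 1 library left out, Socs2 ran from -1.02 to 0.80, Bbc3 from -0.17 to 0.46, Igf1 from -0.10 to 0.59, Igfals from -1.39 to 0.55, Bcl6 from -0.12 to 1.90 and Mki67 from -1.07 to 0.21. The cause of these changes was not tested. Of 85 named uncalled genes, 16 passed without d24 replicate 3 and 0 with edgeR. With DESeq2, 31 of 83 passed, Igfbp1, Afp, G6pc and Tfrc among them (adjusted p = 1.51e-05, 0.000521, 0.0025 and 0.00253). Over all genes, DESeq2 called 531 of 13695, and the fit without d24 replicate 3 called 311 of 13465. Part of the named uncalled genes were picked for the smallest p of their list, so higher shares among them are partly built in. Where 1 group holds 3 reads or fewer, depth limits the fold, and ratios are given with counting intervals.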
